A study of Arabidopsis thaliana with 12 samples.

Results

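CYN (AT3G23490) encodes cyanase of Arabidopsis thaliana. It was read by 1 probe, number 896, the only probe whose platform annotation names CYN alone, out of 3439 probes on the array. Of these, 692 named a single gene (691 genes in all), 870 several and 1877 none. CYN was singled out because earlier work on these values had placed it among the larger increases in toc160. Its toc160 and WT levels are therefore given as a description, with no test of that difference.

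The series compared toc160, an Arabidopsis mutant in which plastids import proteins poorly through their outer envelope, with the wild type (WT), both in ecotype Wassilevskija. Total RNA of 6 toc160 samples and 6 WT samples was hybridised, 1 array each, and replicates 1 to 6 of toc160 share their numbers with replicates 1 to 6 of WT. Allele, tissue, age, growth conditions and the origin of the replicates are not in the labels, so the spread between arrays may be technical. Within each genotype, replicates 1 and 2, 3 and 4, and 5 and 6 were near-duplicates, and each of these pairs was averaged to give 3 values per genotype. On the arrays as deposited the median probe intensity was 0.627 to 0.646 in toc160 and 0.477 to 0.551 in WT, and the summed intensity was 3720 to 3815 in toc160 and 3612 to 3681 in WT. The number of arrays limits the precision of every value below. In RNA of whole samples, a different share of cells that use a gene and a different amount of its RNA per cell cannot be told apart.

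Cyanase takes cyanate and bicarbonate and forms carbamate, which breaks down to ammonia and carbon dioxide. Cyanate is a reactive ion that modifies amino groups of proteins. It arises when urea or carbamoyl phosphate decomposes. The enzyme is best known from Escherichia coli, where it removes cyanate, and the reaction ties cyanate to the ammonia, carbonate, urea and arginine pathways of the cell. The RefSeq annotation on TAIR10.1 lists 3 transcripts for CYN. Which of them the probe hybridises with was not tested.

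As deposited, the CYN signal was higher on every toc160 array than on any WT array. Its deposited intensity is in the array's own units, read here as linear. In toc160 it was 2.83 and 2.66 on replicates 1 and 2, and 2.85 and 2.75 on replicates 3 and 4. On toc160 replicates 5 and 6 it was 4.11 and 4.43. In WT it was 1.55 and 1.47 on replicates 1 and 2, 1.55 and 1.54 on replicates 3 and 4, and 2.25 and 2.43 on replicates 5 and 6. The groups did not overlap: the lowest toc160 array (2.66) lay above the highest WT array (2.43). Replicates 5 and 6 were the highest of their genotype in toc160 and in WT alike. Over pair averages CYN stood at 3.27 ± 0.868 in toc160 and 1.80 ± 0.470 in WT (SD, n = 3 pairs each). Of the 3342 probes that were above 0 on at least 1 array, 17% had all 6 toc160 arrays above all 6 WT arrays as deposited, so a gap of this kind was common on these unnormalized arrays. After quantile normalization, which gives every array the same distribution of values, CYN still did not overlap, and 4.43% of probes had the same order. With cyclic loess, which levels pairs of arrays along the intensity range, it did not overlap either, and 3.83% of probes had this order.

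**Figure D1:**
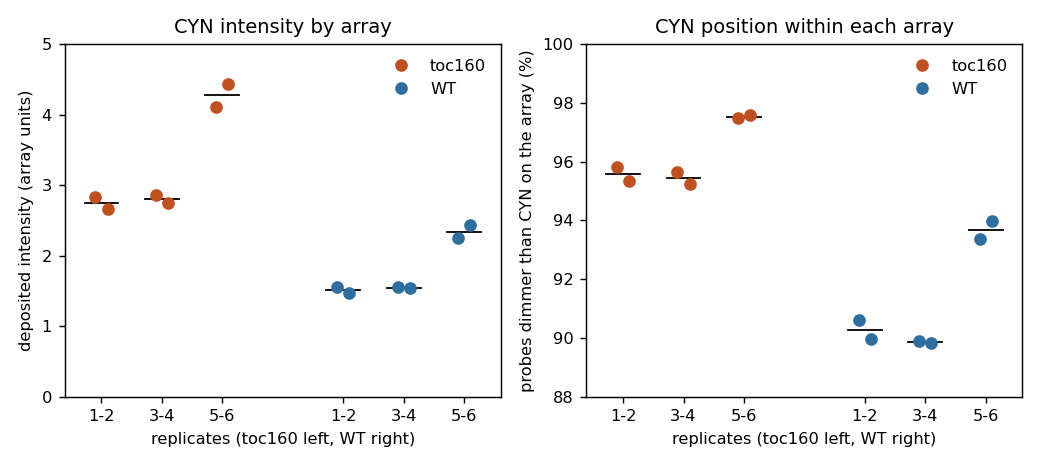
CYN on each array, with toc160 left and WT right and replicates grouped by near-duplicate pair. Points are arrays and black lines are pair means of the deposited intensity (left) and of the percentage of probes dimmer than CYN on the same array (right, on an axis that does not start at 0). All toc160 points lie above all WT points in both panels, and replicates 5 and 6 are the highest of each genotype.

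CYN ranked among the brighter probes in both genotypes. Counted from the brightest of the 3439 probes on the same array, a measure that no rescaling of an array can change, it held ranks 83 to 164 on toc160 arrays and ranks 207 to 350 on WT arrays. Thus 95.2% to 97.6% of probes were dimmer than CYN on toc160 arrays, against 89.8% to 94.0% on WT arrays. The WT arrays that came nearest were replicates 5 and 6, with ranks of 228 and 207, and the toc160 array nearest to them was replicate 4, with a rank of 164. In multiples of the median probe of the same array, CYN stood at 4.21 to 6.87 in toc160 and at 3.04 to 4.41 in WT, and on this scale the ranges overlapped. Averaged over all 12 arrays CYN had the rank 181.

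The ratio of toc160 to WT was nearly the same in all 3 pairs of the deposited values, although the level was not. In replicates 1 and 2 CYN averaged 2.74 in toc160 and 1.51 in WT, a ratio of 1.82. In replicates 3 and 4 it averaged 2.80 in toc160 and 1.55 in WT, a ratio of 1.81. In replicates 5 and 6 it averaged 4.27 in toc160 and 2.34 in WT, a ratio of 1.83. The lowest ratio of a single replicate number was 1.78, in replicate 4, and the highest was 1.84, in replicate 3. The SD of the 3 pair log2 ratios was 0.00597 for CYN as deposited, against a median of 0.18 over all tested probes. Of the 3202 probes with no value of 0 on any array, 7 had a smaller SD than CYN on that scale. Among all tested probes 1.56% did. The ratios were less even on the normalized scales. After quantile normalization the log2 ratios in the 3 pairs were 0.83, 0.84 and 1.01, and 24.7% of tested probes had a smaller SD. With median centring 17.5% of tested probes had a smaller SD, and with cyclic loess 7.12%.

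Between pairs CYN moved in the same way in both genotypes. Its intensity in replicates 5 and 6 was 1.54 times the mean of the other 2 pairs in toc160 and 1.53 times that mean in WT, while replicates 3 and 4 differed from replicates 1 and 2 by a factor of 1.02 in toc160 and in WT. After quantile normalization the excess of replicates 5 and 6 was 0.65 in toc160 and 0.47 in WT on the log2 scale. Ordered by this excess averaged over both genotypes, CYN held rank 322 of the 3342 tested probes, so many probes had a larger one. The 2 arrays of a near-duplicate pair differed little. Their difference was 3.86% to 7.50% of the pair mean in toc160 and 0.789% to 7.67% in WT. As deposited, the excess of replicates 5 and 6 over the other pairs was thus larger than the difference between arrays of a pair, and the ratio of toc160 to WT in each pair was larger than that excess. With median centring the excess of replicates 5 and 6 in toc160 was 0.61 on the log2 scale, above the log2 ratios of toc160 to WT of 0.46 in replicates 1 and 2 and 0.52 in replicates 3 and 4.

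After quantile normalization the log2 difference of CYN, toc160 minus WT, was 0.89, a fold of 1.86 (n = 3 pairs). SEs here and below are from limma, which draws the variance of each probe toward those of all tested probes. For CYN the SE was 0.24 when the pairs were treated as unrelated and 0.069 when toc160 and WT values of the same pair were matched. The first SE holds the shared step of replicates 5 and 6, which the second removes. As deposited the log2 difference was 0.86, and with cyclic loess it was 0.81. With every array centred on its median it was 0.53, a fold of 1.45. The median of all tested probes was higher in toc160 by 0.33 on the log2 scale as deposited, and CYN exceeded that shift by 0.53. Quantile normalization left a median of 0.03. With median centring the groups overlapped, since toc160 replicate 2 (a log2 value of 2.07) lay below WT replicate 6 (2.14), and 2.21% of probes did not overlap with toc160 on top. CYN was higher in toc160 in all 6 replicate numbers under each of the 4 scalings. That held for 20% of probes after quantile normalization, 57% as deposited, 16.3% with median centring and 18.6% with cyclic loess.

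**Figure D2:**
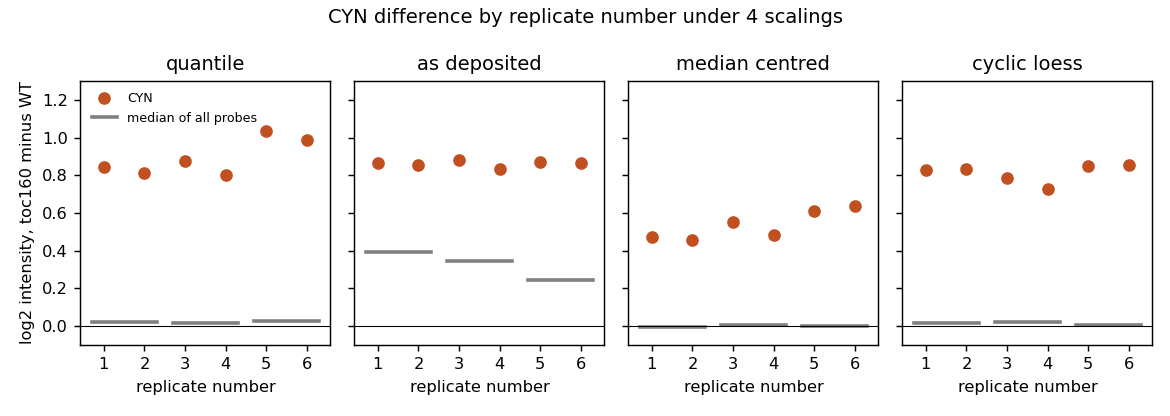
Log2 intensity of CYN in toc160 minus WT for each replicate number (orange points) under 4 scalings, with the median of all tested probes in each pair of replicates as a grey line. As deposited the CYN points are level at about 0.86 while the grey line is at 0.39, 0.34 and 0.24, and with median centring the CYN points run from 0.45 to 0.64.

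The difference placed CYN near the upper end of the array but not at its top. By log2 difference after quantile normalization CYN held rank 47 of 3342 tested probes, and 98.6% of probes had a lower value. The middle 90% of probes lay between -0.64 and 0.52. Within single pairs its rank was 73 in replicates 1 and 2, 76 in replicates 3 and 4 and 46 in replicates 5 and 6, and as deposited or with median centring it was 202, 186 and 135 in the same pairs. As deposited, and so with median centring, its rank over all pairs was 106, and with cyclic loess it was 46. Median centring shifts all probes of an array alike. The ranks of CYN by difference under it, here and below, therefore must equal those as deposited. CYN belonged to the brightest 10% of probes by mean intensity. The median log2 difference of that class was 0.17 after quantile normalization, the highest of the 10 intensity classes, but 0.16 as deposited and -0.17 with median centring, the lowest of the 10 on either scale. After quantile normalization CYN held rank 21 among the 344 probes of the class.

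**Figure D3:**
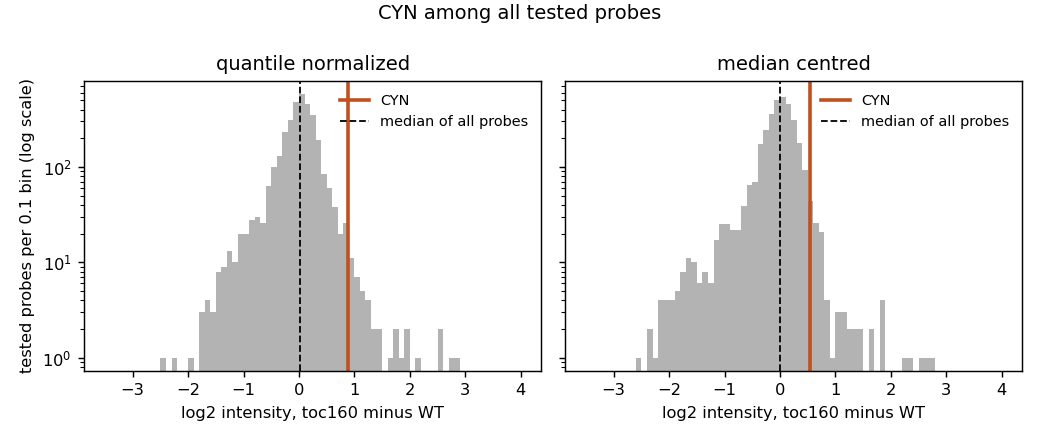
Histogram of the log2 difference, toc160 minus WT, over 3342 tested probes in bins of 0.1 (counts on a log scale), after quantile normalization (left) and with median centring (right). The orange line marks CYN at 0.89 and at 0.53, and the dashed line marks the median of all probes near 0.

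Among the 666 tested probes that named 1 gene, CYN held rank 6 after quantile normalization and with cyclic loess, and rank 22 as deposited and with median centring. After quantile normalization, just above it were AT5G05330, with a log2 difference of 0.90, and AT4G35660, with 0.92. Just below it were NdhS, a subunit of the chloroplast NADH dehydrogenase-like complex, with 0.86, and AT4G31930, with 0.85. These neighbours differed widely in brightness and in how they varied. AT5G05330 was listed at 0 on 2 toc160 arrays and on 5 WT arrays. NdhS averaged 11.9 ± 0.609 in toc160 and 8.14 ± 0.921 in WT (SD, n = 3 pairs each), and its WT level was lowest in replicates 5 and 6, where that of CYN was highest. AT4G31930 averaged 1.81 ± 0.0640 in toc160 and 0.922 ± 0.174 in WT. These averages are of deposited values. As deposited the log2 differences were 0.55 for NdhS, 0.66 for AT4G35660, 0.99 for AT4G31930 and 1.04 for AT5G05330, against 0.86 for CYN.

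The locus whose profile over the 12 arrays was most like that of CYN was AT4G35660, with Pearson's r = 0.97 on quantile-normalized log2 intensity. Likeness was computed for 637 other loci that were named alone and had no value of 0, and the median r was 0.067. AT4G35660 averaged 9.57, 8.59 and 13.4 in the 3 toc160 pairs and 6.60, 5.78 and 7.37 in the 3 WT pairs, and so it shared both the higher toc160 level and the peak in replicates 5 and 6. The next were AT4G18180 (r = 0.91), AT5G19900 (0.89), AT1G50750 (0.89) and AT4G31210 (0.88). All 12 points share the genotype contrast and the near-duplicate pairs. The order also depended on the scaling. With median centring AT4G31210 and AT1G50750 came first and AT4G35660 held rank 9.

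With the genotype means removed, the loci most like CYN were others. AT2G30320 (r = 0.96), AT2G46910 (0.96), AT2G35450 (0.95), CRR21 (0.95), a pentatricopeptide repeat protein of chloroplast RNA editing, and AT2G44530 (0.94) led this order over the 12 arrays. These values describe the step of replicates 5 and 6 almost alone, and 23 of the 637 loci exceeded 0.9. CRR21 averaged 0.774, 0.789 and 1.24 in the toc160 pairs and 0.583, 0.715 and 0.971 in the WT pairs. Its log2 difference between genotypes was 0.05, so it had the step between pairs without an excess in toc160 like that of CYN. AT2G46910 had the same pattern with a larger step, at 0.443, 0.505 and 1.23 in the toc160 pairs and 0.358, 0.459 and 1.02 in the WT pairs.

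**Figure D4:**
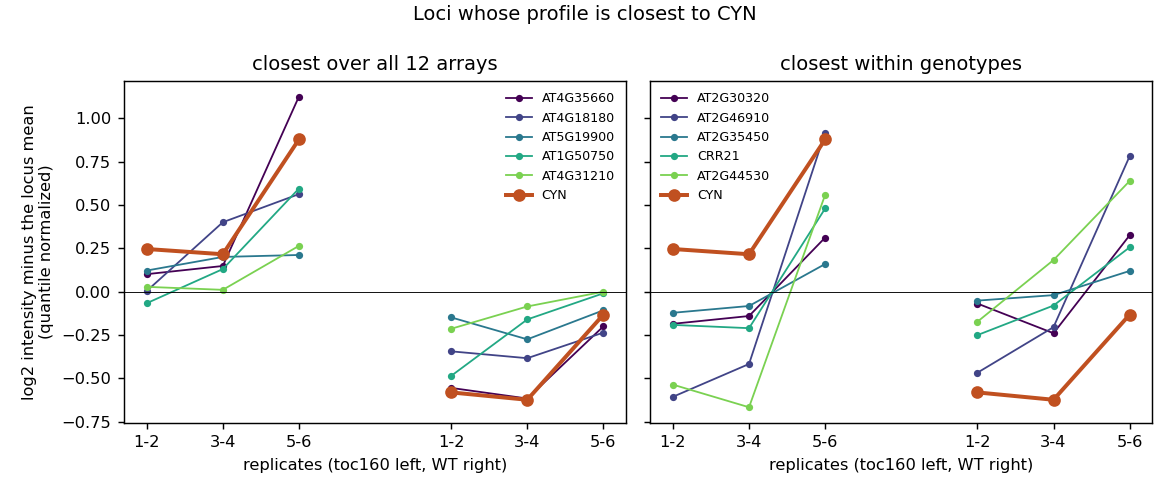
Quantile-normalized log2 intensity of CYN (thick orange) and of the loci closest to it, minus the mean of each locus, for the 5 loci closest over all 12 arrays (first panel) and the 5 closest within genotypes (second panel). In each panel the 3 toc160 pairs stand left of the 3 WT pairs, and lines only join points of 1 locus. The loci of the first panel lie higher in toc160 than in WT in each pair, and those of the second panel are highest in replicates 5 and 6 of both genotypes.

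The genes that surround the cyanase reaction were almost all outside the set that could be read alone. Lists of carbonic anhydrases, ammonium assimilation, nitrate uptake and reduction, urea, arginine and carbamoyl phosphate metabolism, cyanide and sulfur detoxification, and photorespiration held 83 loci, and 1 of the 83 was named alone by a probe. That locus is AT5G10920 (ASL), which encodes argininosuccinate lyase, the enzyme that releases arginine. ASL averaged 1.25 ± 0.343 in toc160 and 1.02 ± 0.184 in WT (SD, n = 3 pairs each). The quantile-normalized log2 difference of ASL was 0.08 (SE 0.30, limma adjusted p = 0.990), and its ranges overlapped, at 0.847 to 1.59 in toc160 and 0.796 to 1.20 in WT. Unlike CYN, ASL was lowest in replicates 5 and 6 of both genotypes. OTC and PYRB, also on these lists, were read only by probes that name several genes. Probe 1761 names these genes and no other, with a log2 difference of 0.20 (SE 0.30). Probe 68 names AT1G75335 as well, with a log2 difference of 0.26 (SE 0.29). Over all tested probes limma with pairs averaged and not matched called 75 probes (2.24%) at an adjusted p under 0.05, 19 higher and 56 lower in toc160, and with pairs matched it called 220 (6.58%). The split was 66 higher and 57 lower as deposited, 6 and 99 with median centring, and 8 and 70 with cyclic loess.

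A further set of 6 nitrogen and sulfur enzymes was formed from the names on the array. In limma 0 of the 5 that could be tested passed with pairs unmatched, 0 passed with pairs matched, and 0 had an unadjusted p under 0.05, which 13.7% of all tested probes had. The median log2 difference of the 5 was 0.08, against 0.03 over all tested probes. Besides ASL, SIRB, which makes the siroheme cofactor of nitrite and sulfite reductases, averaged 0.592 ± 0.257 in toc160 and 0.383 ± 0.120 in WT (log2 difference 0.24, SE 0.46). AT-HF, a histidine synthesis enzyme, had a log2 difference of 0.08 (SE 0.13). CBL, the cystathionine beta-lyase of methionine synthesis, had one of -0.09 (SE 0.20), and APS4, an ATP sulfurylase, one of -0.26 (SE 0.12, limma adjusted p = 0.436). These differences are quantile normalized, and some signs depended on the scaling. As deposited APS4 had 0.12 and CBL 0.32, and with median centring they had -0.21 and -0.007. ASL had 0.27 as deposited and -0.06 with median centring, while SIRB and AT-HF stayed positive on both scales. UPP, a uracil phosphoribosyltransferase, was listed at 0 on all 12 arrays. Lists of seed, root and leaf genes held 27 loci, 0 of which were named alone by a probe, so the tissue was not checked on them. RCA, on the leaf list, was read only by 2 probes that also name AT1G73110. Probe 665 had a log2 difference of -1.06 (SE 0.15, limma adjusted p = 0.0389). Probe 1872 had one of -0.94 (SE 0.26, limma adjusted p = 0.179).

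The 3 protein-coding genes on each side of CYN in TAIR10.1 order (AT3G23460, AT3G23470 and AT3G23480 on one side, AT3G23510, AT3G23530 and AT3G23540 on the other) were not named by any probe. On the array itself, 6 other probes had numbers within 5 of CYN. Of these, 3 had all toc160 arrays above all WT arrays as deposited, where the share over all tested probes was 17%. One was AT3G09080, at 6.95, 7.99 and 6.74 in the toc160 pairs and 3.89, 4.23 and 2.94 in the WT pairs. It was higher in toc160 with a log2 difference of 1.22 (SE 0.16, limma adjusted p = 0.0334, or 0.0256 with pairs matched). Unlike CYN, its WT level was lowest in replicates 5 and 6. The unnamed probes 897 and 901 were the other two, with log2 differences of 0.17 and 0.46. The unnamed probe 899 shared the step between pairs instead, at 0.593, 0.474 and 3.76 in the toc160 pairs and 0.533, 0.425 and 2.21 in the WT pairs, and its log2 difference between genotypes was 0.15. Probe 891, which names GrxC5 and AT2G20270, was lower in toc160, with a log2 difference of -1.03 (SE 0.32). Its intensity in replicates 5 and 6 was 2.08 times the mean of the other pairs in toc160 and 1.70 times in WT. The unnamed probe 892 had a log2 difference of 0.22 (SE 0.29) and no upward step in replicates 5 and 6. The part that position on the array has in the CYN values was not tested.

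**Figure D5:**
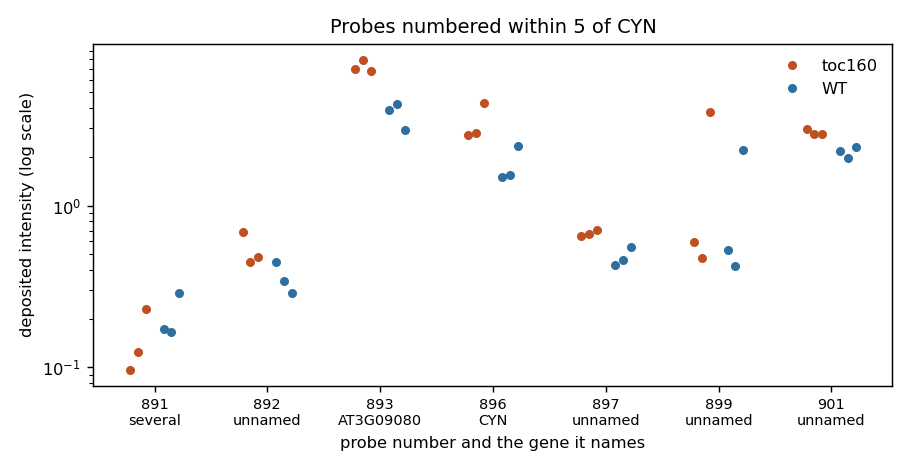
Deposited intensity (log scale) of CYN and the 6 other probes numbered within 5 of it, with 1 point per pair of replicates (1-2, 3-4 and 5-6 from left to right), toc160 in orange and WT in blue. AT3G09080 and CYN both lie higher in toc160, and probe 899 is high only in replicates 5 and 6 of both genotypes.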

How the data were processed

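The deposited table holds 1 linear intensity per probe and array, as its values (0 to 100) show; the authors' background correction and scaling are not given in the sources used here. Probes were named through the platform annotation, and 690 of the 692 probes with 1 gene matched a TAIR10.1 gene. A floor was set at the 1st percentile of positive intensities (0.0364), and floored values were log2 transformed and quantile normalized over all 3439 probes. The 97 probes at 0 on every array were left out of the fit. Replicates 1-2, 3-4 and 5-6 were averaged, and limma 3.58.1 in R 4.3.3 (lmFit, eBayes) compared toc160 with WT, two-sided, with Benjamini-Hochberg adjustment over 3342 probes and a threshold of 0.05. The fit was also run on simulated independent values with the same SD for every probe and no effect shared by pairs. Those settings differ from these data.

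The labels state no pairing, so the fit has no block. Same-numbered arrays nevertheless deviated together from their group means (r 0.518 to 0.722 in all 6 numbers), and matched values are given beside the results. Spearman correlations were 0.982 to 0.989 within near-duplicate pairs and 0.860 to 0.941 between other arrays of a genotype.

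CYN, the lists and the likeness rule were chosen with earlier results of these data known, and the set of 6 enzymes after the probe names were seen. Named loci are CYN, measured list members, the 5 closest loci over 12 arrays and the 5 closest within genotypes. They also include single-gene probes within 5 numbers, the 3 genes on each side, and the 2 loci next above and below CYN by log2 difference. Probes 891, 892, 897, 899 and 901 were named after their values were seen. So were the shared probes 68 and 1761 of OTC and PYRB, and 665 and 1872 of RCA. Alternatives were other scalings, floors, filters, fits and left-out arrays.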

Additional observations from a re-analysis of the deposited data

Results flagged for a closer look

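Of 42 groups of 6 arrays checked for 1 value apart from the rest (21 loci in toc160 and in WT), 1 held such a value. Chance gives about 1 in 20 for 6 independent values, which near-duplicate arrays are not. For AT5G05330 in WT, replicate 6 had a quantile-normalized log2 value of -3.21, and the other 5 arrays, all listed at 0, shared the floor at -4.78, so that the gap was 1 times the range. For CYN the gap was 0.0722 of the range in toc160 and 0.19 in WT, both below the limit used. Each array has a near-duplicate, so the check cannot flag a step that both arrays of a pair share. CYN has such a step in replicates 5 and 6.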

How the results depend on the processing

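The log2 difference of CYN stayed positive under every alternative run. It was 0.53 with median centring, and 0.83 to 0.92 when any pair of replicates was left out. With any single array left out it was 0.87 to 0.91, but the near-duplicate of that array then stayed in as the pair value. With the pair as a replicate block the estimate stayed at 0.89. Its rank by log2 difference was 106 as deposited and with median centring, 31 with the floor at the 5th percentile, 41 to 56 with arrays or pairs left out, and, over the 666 probes with 1 gene, 6 after quantile normalization and 22 as deposited and with median centring. The number of probes past the threshold, 75 as reported, was 123 as deposited, 516 with 6 arrays against 6, 220 with the pair as a replicate block, 1173 with a replicate block by number, which counts near-duplicate arrays as separate, and 7 among probes with 1 gene. It ranged from 59 to 78 with 1 array left out. With any pair left out limma called 0, and 227 to 457 probes had an unadjusted p under 0.05, as 2 values per genotype remained. The count of cyanase-related list members past the threshold was 0 of 1 in all of these, the 15 with arrays or pairs left out included (0 to 0). ASL was the only member counted. With a pair left out that count could only be 0, as limma called 0 of all probes there. The scaling by the authors and the sequence of the probe are not given in the sources used here, and which transcripts the probe detects was not tested.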
